A study of Rattus norvegicus with 18 samples.

Results

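The genes described here encode the subunits and close partners of the proteasome in rat collecting duct cells of the inner medulla in primary culture, the epithelium that sets the final urine concentration. They were taken as the array features with 1 gene symbol that begins with Psma, Psmb, Psmc, Psmd or Psme and a digit. The rule found 51 features of 44 genes, out of 14499 genes with 1 symbol among 28328 features, and for 7 genes with several features the brightest one, by its mean across the 18 arrays, was used. Of the 44 genes, 5 encode immunoproteasome subunits (Psmb8, Psmb9, Psmb10, Psme1 and Psme2) and 35 encode constitutive subunits, assembly chaperones of the regulatory particle or other activators. The other 4 met the rule by symbol: Psmb11, a core subunit known from the thymus cortex, Psma3l, which the hand-written list of roles did not hold, and Psmc3ip and Psme3ip1, which encode interaction partners and not subunits. Psma3l is therefore not counted with the alpha ring or the constitutive genes, and whether it is a core subunit was not judged. A feature that carries both Psma3l and Psma3 as symbols was left out by the rule.

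The study measured 18 whole-transcript arrays in 6 groups of 3. Cells were grown at 300 mosmol/kg (300 culture) or at 600 mosmol/kg (600 culture). Cells of the 300 culture were moved for 24 h to 600 mosmol/kg without cyclosporin A (600 challenge) or with 5 µM of it (600 challenge with CsA). Cells of the 600 culture were moved for 24 h to 900 mosmol/kg without cyclosporin A (900 challenge) or with 5 µM of it (900 challenge with CsA). Cyclosporin A is an immunosuppressant that inhibits calcineurin through cyclophilin. All 6 groups are primary cultures, for which the labels give no rat strain or age. No group was moved to fresh medium of the same osmolality, so a challenge effect cannot be told apart from that of the move and the added time in culture. Whether replicate arrays stem from different rats, different dishes or 1 extract is not stated, and p-values therefore measure array-to-array spread that could be purely technical.

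The proteasome degrades proteins tagged with ubiquitin. Its 20S core is a barrel of alpha and beta subunits, of which Psmb5, Psmb6 and Psmb7 carry the proteolytic sites, and the 19S regulatory particle, built from Psmc ATPases and Psmd subunits, binds, unfolds and feeds in the substrates. In cells that have met interferon, Psmb8, Psmb9 and Psmb10 replace the 3 constitutive catalytic subunits in newly made cores and Psme1 and Psme2 form the activator PA28, which shapes the peptides presented by major histocompatibility complex (MHC) class I molecules. In the renal medulla, high osmolality is part of the concentrating mechanism, and the cells adapt to it through the transcription factor NFAT5.

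The values are expression levels on a log scale. Neither labels nor files name its base, so a difference of 1 log unit is a 2-fold change in base 2 and a 2.72-fold change in natural logs. The lowest value was 0, the highest 9.504, and the median of an array was 3.564 to 3.649. Constitutive members had mean levels between 4.654 and 7.539 and immunoproteasome members between 4.413 and 7.394, all above the arrays' lower quartiles of 2.476 to 2.696. Psmb11 had a mean of 1.873, below that quartile. A gene was called where limma's adjusted p, by Benjamini-Hochberg over all 28328 features, was under 0.05. The principal cell gene Aqp2, the vasopressin-regulated water channel that marks the labelled cell type, averaged 7.70 in the 900 challenge with CsA, 7.94 in the 900 challenge, 1.86 in the 600 challenge with CsA, 2.28 in the 600 challenge, 6.50 in the 600 culture and 1.61 in the 300 culture. The label's defining marker was thus below the arrays' lower quartiles in the 300 culture and in the groups challenged from it.

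Of the 44 genes, Psmb9 had the widest span of group means, at 1.07 log units, followed by Psmd5 at 1.00 and Psmd10 at 0.83. Psmb10 spanned 0.76 and Psmb8 spanned 0.71. The median span was 0.71 over the 5 immunoproteasome genes and 0.24 over the 35 constitutive ones. The residual standard deviation within groups had a median of 0.075 in the immunoproteasome genes, 0.065 in the constitutive genes and 0.155 over all features.

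**Figure D1:**
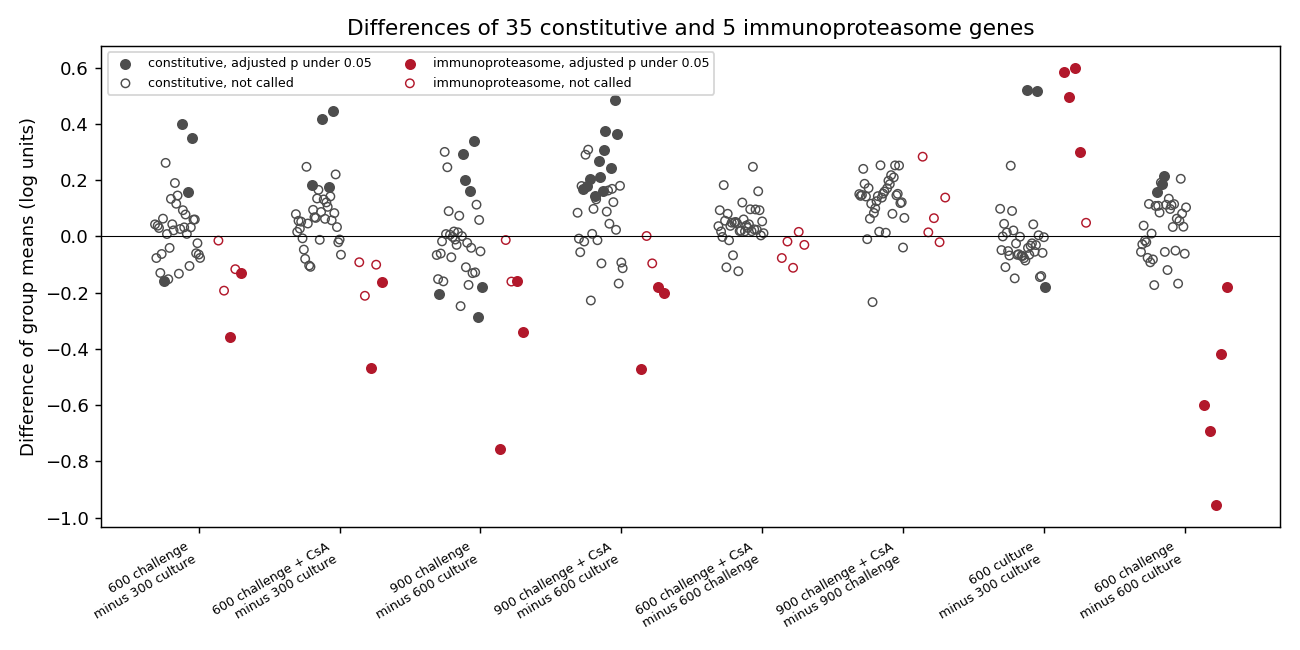
Difference in log units for each of the 35 constitutive and 5 immunoproteasome genes (points, coloured by set; filled where called) in the 8 comparisons between groups. The 5 immunoproteasome members lie above 0 in the 600 culture against the 300 culture, with 4 called, and below 0 in the 600 challenge against the 600 culture, with 5 called, while most constitutive members lie close to 0 in both.

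The immunoproteasome genes were higher in cells grown at 600 mosmol/kg than in cells grown at 300 mosmol/kg. In the 600 culture against the 300 culture, where 17.2% of all features were called (8.33% higher, 8.84% lower), 4 of the 5 rose, with a median difference of 0.50 over the 5 against 0.00 over all features. Psmb9, the catalytic subunit that takes the place of Psmb6, rose by 0.60 ± 0.07 (SE, adjusted p = 9.1e-06), which is 1.52-fold in base 2 or 1.82-fold in natural logs. Psmb10, which takes the place of Psmb7, rose by 0.59 ± 0.11 (adjusted p = 0.00194), and Psmb8, which takes the place of Psmb5, rose by 0.50 ± 0.07 (adjusted p = 0.000111). Psme1, the PA28 alpha subunit, rose by 0.30 ± 0.04 (adjusted p = 0.000131). Its partner Psme2, the PA28 beta subunit, differed by 0.05 ± 0.04 (adjusted p = 0.497).

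The constitutive counterparts did not pass the test in that comparison. Psmb5 differed by 0.02 with a 95% interval of -0.36 to 0.40, Psmb6 by -0.15 with an interval of -0.32 to 0.02, and Psmb7 by -0.03 with an interval of -0.13 to 0.08. Psmb5 varied more within groups than the other 2, with standard deviations of 0.14 to 0.38.

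Psmb9 had 5.97, 5.92 and 5.77 in the 900 challenge with CsA, 5.85, 5.87 and 5.74 in the 900 challenge, 4.90, 4.92 and 4.92 in the 600 challenge with CsA, 5.10, 5.05 and 4.91 in the 600 challenge, 5.94, 6.04 and 5.96 in the 600 culture, and 5.46, 5.33 and 5.35 in the 300 culture. All 9 arrays from cells grown at 600 mosmol/kg were above all 9 arrays from cells grown at 300 mosmol/kg, and the 6 challenged arrays of the 300 culture were below its 3 unchallenged ones. Psmb8 had 5.27, 5.20 and 5.28 in the 900 challenge with CsA, 5.30, 5.15 and 5.26 in the 900 challenge, 4.45, 4.60 and 4.57 in the 600 challenge with CsA, 4.63, 4.55 and 4.50 in the 600 challenge, 5.26, 5.34 and 5.14 in the 600 culture, and 4.88, 4.68 and 4.69 in the 300 culture. The 3 groups grown at 600 mosmol/kg overlapped one another and none of them overlapped a group grown at 300 mosmol/kg. Psmb10 had 4.53, 4.45 and 4.38 in the 900 challenge with CsA, 4.14, 4.01 and 4.37 in the 900 challenge, 4.24, 4.38 and 4.13 in the 600 challenge with CsA, 4.43, 4.44 and 4.12 in the 600 challenge, 5.01, 4.91 and 4.87 in the 600 culture, and 4.50, 4.38 and 4.15 in the 300 culture. Here the unchallenged 600 culture stood above the other 5 groups, including the 900 challenges made from it.

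Psme1 had 7.04, 7.13 and 7.08 in the 900 challenge with CsA, 7.13, 7.13 and 7.05 in the 900 challenge, 6.82, 6.92 and 6.85 in the 600 challenge with CsA, 6.86, 6.84 and 6.84 in the 600 challenge, 7.26, 7.26 and 7.27 in the 600 culture, and 6.94, 6.995 and 6.95 in the 300 culture. Its levels were highest in the 600 culture, intermediate in the 900 challenges and lowest in the 600 challenges, with no overlap between these levels. Psme2 had 7.36, 7.39 and 7.32 in the 900 challenge with CsA, 7.24, 7.21 and 7.21 in the 900 challenge, 7.33, 7.38 and 7.33 in the 600 challenge with CsA, 7.39, 7.35 and 7.40 in the 600 challenge, 7.56, 7.57 and 7.54 in the 600 culture, and 7.51, 7.52 and 7.49 in the 300 culture. Both unchallenged cultures were above all challenged arrays, and the 900 challenge was lowest.

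**Figure D2:**
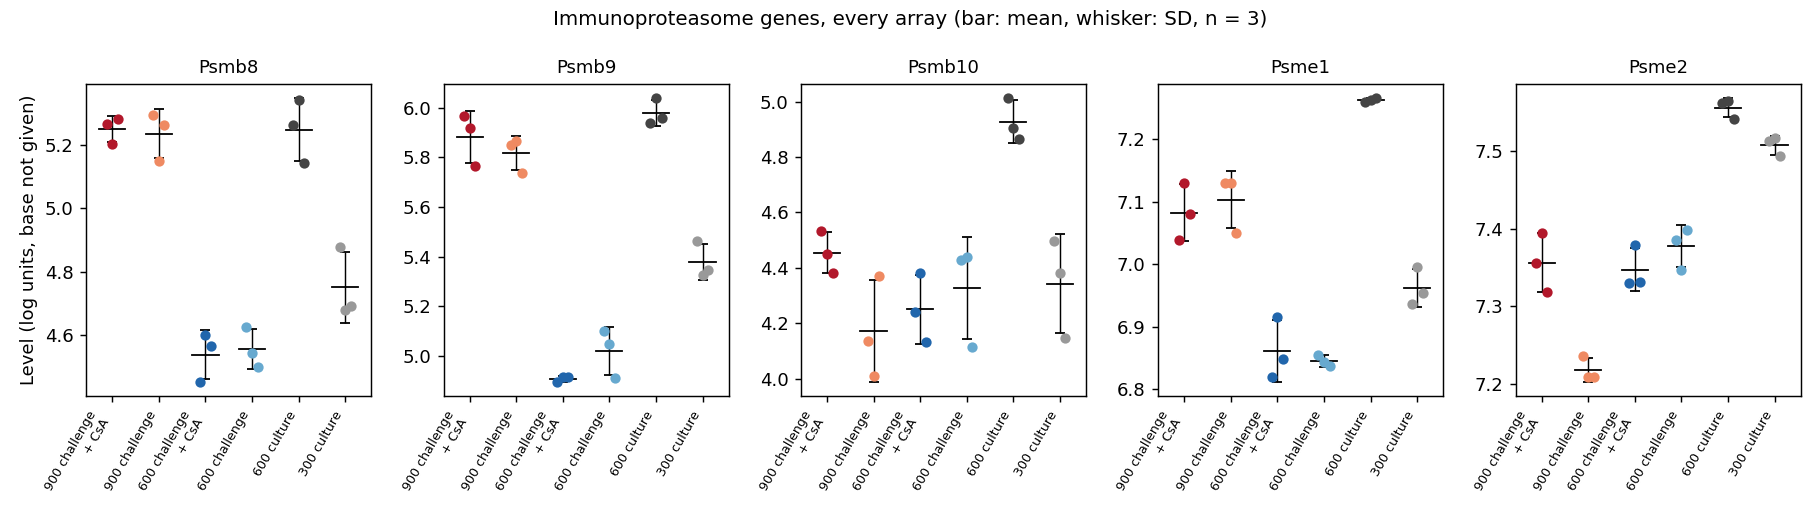
Level in log units of the 5 immunoproteasome genes in every array (points), with group means (bars) and SD (whiskers, n = 3). Psmb8 and Psmb9 separate the arrays by the osmolality of growth, Psmb10 stands apart in the 600 culture alone, and Psme2 is lower in all challenged arrays than in both cultures.

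A move to 600 mosmol/kg for 24 h did not bring these genes to the level of cells grown at 600 mosmol/kg. In the 600 challenge against the 600 culture, where 16.4% of all features were called (7.69% higher, 8.74% lower), all 5 immunoproteasome genes fell, with a median difference of -0.60. Psmb9 fell by 0.96 ± 0.07 (SE, adjusted p = 7.87e-08), which is 1.94-fold in base 2 or 2.60-fold in natural logs. Psmb8 fell by 0.69 ± 0.07 (adjusted p = 5.09e-06), Psmb10 by 0.60 ± 0.11 (adjusted p = 0.00174), Psme1 by 0.42 ± 0.04 (adjusted p = 6.07e-06) and Psme2 by 0.18 ± 0.04 (adjusted p = 0.0041). This comparison shares the 600 culture arrays with the one between the cultures, so the opposite signs of both are not independent of each other.

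In the 600 challenge against the 300 culture, where 14.4% of features were called (6.36% higher, 8.07% lower), 2 of the 5 fell and 0 rose, with a median difference of -0.13. Psmb9 fell by 0.36 ± 0.07 (adjusted p = 0.00162) and Psme2 by 0.13 ± 0.04 (adjusted p = 0.0335). The Psme2 call was lost in each of the 6 fits that left out 1 array of either group (adjusted p = 0.052 to 0.118). Psmb8 differed by -0.19 (adjusted p = 0.0867), Psme1 by -0.12 (adjusted p = 0.0928) and Psmb10 by -0.02 (adjusted p = 0.962). In the 600 challenge with CsA against the same 300 culture arrays, where 14.1% of features were called (6.21% higher, 7.85% lower), Psmb9 fell by 0.47 ± 0.07 (adjusted p = 0.00016) and Psme2 by 0.16 ± 0.04 (adjusted p = 0.0104).

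After the step to 900 mosmol/kg, 3 of the 5 genes were lower than in the 600 culture. In the 900 challenge against the 600 culture, where 17.4% of features were called (6.43% higher, 11% lower), Psmb10 fell by 0.76 ± 0.11 (adjusted p = 0.000274), which is 1.69-fold in base 2 or 2.13-fold in natural logs. Psme2 fell by 0.34 ± 0.04 (adjusted p = 1.91e-05) and Psme1 by 0.16 ± 0.04 (adjusted p = 0.0184), the Psme1 call being lost without 600 culture replicate 2 or 3 or 900 challenge replicate 3 (adjusted p up to 0.0828). Psmb8 differed by -0.01 (adjusted p = 0.942) and Psmb9 by -0.16 (adjusted p = 0.119). In the 900 challenge with CsA against the same 600 culture arrays, where 17.8% of features were called (7.27% higher, 10.5% lower), these 3 genes were called as well, with -0.47 ± 0.11 for Psmb10 (adjusted p = 0.00924), -0.20 ± 0.04 for Psme2 (adjusted p = 0.00176) and -0.18 ± 0.04 for Psme1 (adjusted p = 0.0087).

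The change on the step differed between the cultures for 3 of the 44 genes (6.82%), no more than the 7.58% of all features that were called (3.52% higher, 4.06% lower). The difference of the 900 step minus the 600 step was -0.74 ± 0.16 for Psmb10 (adjusted p = 0.0118), -0.24 ± 0.06 for Psma4 (adjusted p = 0.0224) and -0.21 ± 0.05 for Psme2 (adjusted p = 0.0312). The Psmb10 call held in all 12 fits that left out 1 array. The Psma4 call was lost in 5 of these 12 fits (without 300 culture replicate 1 or 2, 600 culture replicate 2 or 3, or 600 challenge replicate 1), with adjusted p up to 0.0601. The Psme2 call was lost in 10 of 12, with adjusted p up to 0.0731, and held without 600 challenge replicate 2 or 900 challenge replicate 1. Centring the arrays on their medians ended both calls (adjusted p = 0.0751 for Psma4 and 0.064 for Psme2).

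Genes with several features allowed a check of the PA28 subunits. The second feature of Psme2, with group means of 6.98 to 7.34, also fell in the 900 challenge against the 600 culture, by 0.36 (adjusted p = 0.000414), and in the 900 challenge with CsA, by 0.25 (adjusted p = 0.00645). It was not called in 3 comparisons in which the brighter feature was: the 600 challenge against the 600 culture (-0.17, adjusted p = 0.0602), the 600 challenge against the 300 culture (-0.11, adjusted p = 0.245) and the difference of steps (-0.25, adjusted p = 0.082). The second feature of Psme1 was dimmer, with group means of 3.92 to 4.76, and passed the test in none of the 10 comparisons. Averaged over its features, Psme1 differed by -0.02 in the 900 challenge with CsA against the 600 culture (adjusted p = 0.933), and its call in the 900 challenge was lost as well (adjusted p = 0.221). Quantile normalization ended that call too (-0.11, adjusted p = 0.107).

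Promoter sequences are shown for the 5 immunoproteasome genes because 4 of them rose together between the cultures and only some of the 5 carry a match to the interferon-stimulated response element (ISRE), the site bound by interferon regulatory factors. They are taken from RefSeq on the GRCr8 build and run from 150 bases before to 10 bases after the annotated start, in the direction of the gene, with matches to the ISRE-type motif (GAAA, any 2 bases, GAAA) on either strand in capitals.
Psmb8 (chr20:4657022-4657181, minus strand): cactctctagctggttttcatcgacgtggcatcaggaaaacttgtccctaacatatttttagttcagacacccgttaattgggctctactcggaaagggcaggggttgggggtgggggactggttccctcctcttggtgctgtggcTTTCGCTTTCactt
Psmb9 (chr20:4668850-4669009, plus strand): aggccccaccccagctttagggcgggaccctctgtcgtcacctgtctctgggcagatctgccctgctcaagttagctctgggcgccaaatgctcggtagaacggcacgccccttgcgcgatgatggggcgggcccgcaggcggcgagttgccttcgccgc
Psmb10 (chr19:50743283-50743442, minus strand): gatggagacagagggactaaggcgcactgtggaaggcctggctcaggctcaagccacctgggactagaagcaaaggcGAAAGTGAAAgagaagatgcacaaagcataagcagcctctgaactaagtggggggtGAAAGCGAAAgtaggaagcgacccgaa
Psme1 (chr15:33038821-33038980, plus strand): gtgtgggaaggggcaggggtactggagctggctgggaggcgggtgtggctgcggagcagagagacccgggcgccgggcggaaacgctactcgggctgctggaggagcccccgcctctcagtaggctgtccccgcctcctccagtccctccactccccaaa
Psme2 (chr15:33052742-33052901, minus strand): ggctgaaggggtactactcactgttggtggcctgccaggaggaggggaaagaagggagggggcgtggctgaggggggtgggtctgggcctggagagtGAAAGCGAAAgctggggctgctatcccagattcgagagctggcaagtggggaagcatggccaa

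The ISRE-type motif was found in the promoters of Psmb8, Psmb10 and Psme2, that is in 3 of 5 immunoproteasome genes, in 3 of 31 constitutive genes (Psma4, Psmb3 and Psmd7), and in 3.92% of all 33469 promoter windows of 300 bases, which run from 250 bases before to 50 after the start. Psmb10 has 2 matches, at -73 to -64 and at -17 to -8 relative to the start, Psme2 has 1 at -53 to -44, and Psmb8 has 1 on the opposite strand at -4 to 6. None of these overlapped a match of another motif. The search covered 11 motifs on both strands in the 38 of 44 members with a window, and the motifs were picked with the results known, so the shares are descriptions only. The NFAT5 core TGGAAA was found in 1 of 5 immunoproteasome promoters (Psmb9), in 5 of 31 constitutive promoters and in 22.7% of all. The motif TGACNNNGC, part of the antioxidant response element that NRF1 and NRF2 bind, was found in 0 of 5, in 7 of 31 and in 12.1% of all. Of the other 8 motifs, GGG and CC with any 5 bases between occurred in 3 of 5, in 19 of 31 and in 47.3% of all, and CCAAT in 2 of 5, in 16 of 31 and in 37.5% of all. Psmb9 lies head to head with Tap1, the peptide transporter of the MHC class I pathway, with the annotated starts 457 bases apart on chromosome 20. Between these starts lies an ISRE-type match, at -121 to -112 from the Tap1 start and -345 to -336 from the Psmb9 start, outside the window searched for Psmb9. Among the members this wider stretch was read for Psmb9 alone, without a share over all promoters, and a role of the match was not tested. In the 600 culture against the 300 culture, Psmb8 and Psmb10, with a match, rose, as did Psmb9 and Psme1, without one in their windows. Psme2, with a match, was not called there. Tap1 rose by 0.77 ± 0.07 in the 600 culture against the 300 culture (adjusted p = 1.09e-06) and fell by 0.72 ± 0.07 in the 600 challenge against the 600 culture (adjusted p = 2.4e-06).

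Genes of peptide loading and interferon control, of which 18 of 21 listed were measured, moved in both directions between the cultures. In the 600 culture against the 300 culture, 8 rose and 5 fell, with a median of -0.01. Irf7, a transcription factor induced by interferon, rose by 2.49 ± 0.17 (adjusted p = 5.35e-08), Irf9, the DNA-binding part of the type I interferon response complex, by 0.78 ± 0.07 (adjusted p = 8.49e-07) and Irf1, a factor known to act on immunoproteasome promoters, by 0.53 ± 0.05 (adjusted p = 1.23e-06). The interferon receptor subunits Ifngr1 (-0.34 ± 0.06, adjusted p = 0.00082) and Ifnar1 (-0.22 ± 0.06, adjusted p = 0.0245) fell. Cells after the 600 challenge, set against the 600 culture, had 8 falls and 0 rises, with -2.70 ± 0.17 for Irf7 (adjusted p = 2.65e-08) and -1.02 ± 0.07 for Irf9 (adjusted p = 5.3e-08). The 900 challenge against the 600 culture had 5 rises and 4 falls. Irf7 rose by 0.77 ± 0.17 (adjusted p = 0.00458), while Irf1 fell by 0.43 ± 0.05 (adjusted p = 1.51e-05) and the peptide-trimming enzyme Erap1 by 0.74 ± 0.04 (adjusted p = 3.52e-08).

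Leukocytes express immunoproteasome genes at a high level, and the cultures held RNA of leukocyte markers that moved between the groups. In bulk RNA, fewer cells of a type and less RNA per cell cannot be told apart. The mean of the 13 leukocyte markers ranged over arrays from 3.56 to 3.61 in the 900 challenge with CsA, 3.56 to 3.59 in the 900 challenge, 4.37 to 4.65 in the 600 challenge with CsA, 4.58 to 4.74 in the 600 challenge, 4.69 to 4.83 in the 600 culture and 5.86 to 5.95 in the 300 culture. In the 600 culture against the 300 culture, 12 of the 13 markers fell (median -1.14), opposite to the 4 immunoproteasome genes that rose. The 600 challenge against the 300 culture had 11 of 13 lower (median -1.22), and in the 900 challenge against the 600 culture all 13 fell (median -1.14), the same direction as the immunoproteasome genes that fell there. Between the 600 challenge and the 600 culture 3 rose and 4 fell (median -0.07). In the 900 challenge, C1qa (1.91), Tyrobp (2.06) and Coro1a (2.46) averaged below the arrays' lower quartiles of 2.476 to 2.696. With CsA they did so too, at 2.09, 2.16 and 2.09. The size of their falls there is therefore uncertain. The part of the leukocyte markers in the falls of immunoproteasome genes was not tested.

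Other cell type markers also moved with the immunoproteasome genes or against them. The mean of the 12 principal cell markers lay at 4.79 to 5.08 over arrays of the 600 culture and at 2.89 to 3.02 over arrays of the 300 culture, with 9 of 12 higher and 0 lower, the same direction as the immunoproteasome genes. The 12 fibroblast markers lay at 5.54 to 5.56 in the 600 culture and at 5.83 to 5.88 in the 300 culture, with 6 lower and 0 higher. In the 600 challenge against the 600 culture, where all 5 immunoproteasome genes fell, 8 of 12 principal cell markers, 9 of 12 fibroblast markers, 7 of 9 endothelial markers and 3 of 4 loop of Henle markers fell as well, with 0, 1, 0 and 0 higher. The endothelial mean lay at 4.79 to 4.85 over arrays of the 600 challenge and at 5.27 to 5.40 over arrays of the 600 culture. The fibroblast mean lay at 5.09 to 5.16 in the 600 challenge and at 5.54 to 5.56 in the 600 culture. Of the markers in the 900 challenge against the 600 culture, 10 of 12 fibroblast and 5 of 9 endothelial markers fell, the direction of Psmb10, Psme1 and Psme2, with 0 and 1 higher. There, 8 of 12 principal cell markers rose. Between the cultures 4 endothelial markers were higher and 3 lower, and 3 of 4 loop of Henle markers were higher in the 600 culture. The 7 intercalated cell and 6 proximal tubule markers had at most 2 calls in either direction in these 3 comparisons. The part of these cell types in the results was not tested.

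**Figure D3:**
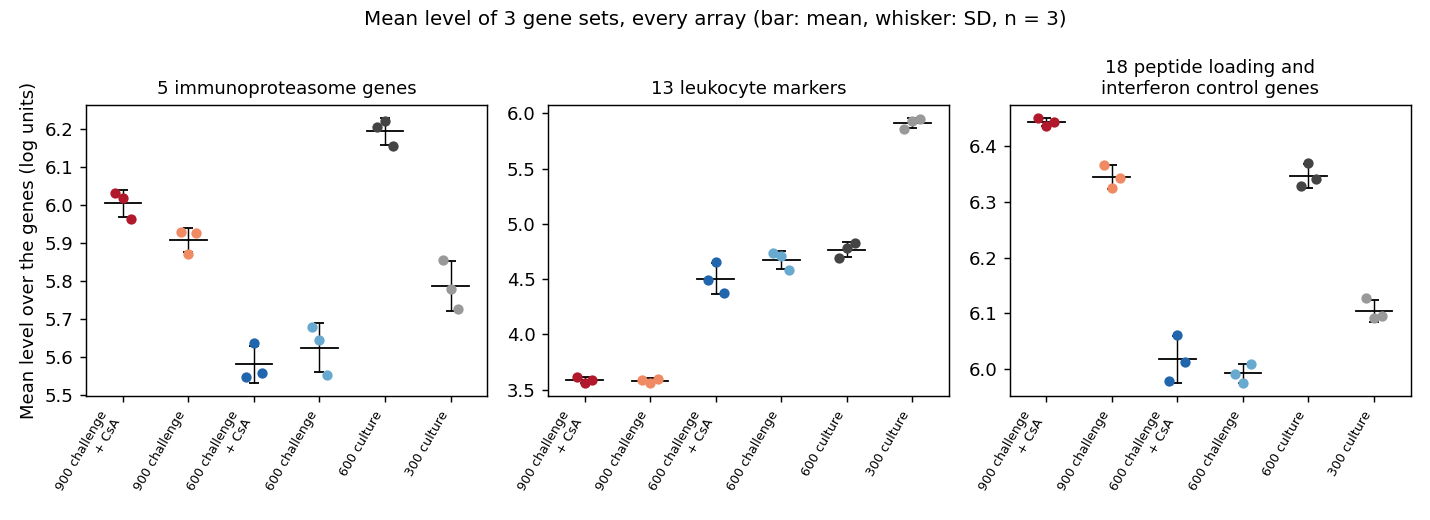
Mean level in log units over 5 immunoproteasome genes, 13 leukocyte markers and 18 peptide loading and interferon control genes in every array (points), with group means and SD (n = 3). The immunoproteasome mean lies at 6.15 to 6.22 in the 600 culture and at 5.73 to 5.86 in the 300 culture, whereas the leukocyte mean lies at 4.69 to 4.83 in the 600 culture and at 5.86 to 5.95 in the 300 culture.

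Among the 35 constitutive genes the largest changes were those of Psmd5 and Psmd10, which encode assembly chaperones of the 19S base (known in human cells as S5b and gankyrin) that bind Psmc ATPases before the particle is complete. Both rose in all 5 comparisons of a group with an unchallenged culture of lower osmolality. In the 600 culture against the 300 culture, Psmd5 rose by 0.52 ± 0.05 (adjusted p = 6.86e-06) and Psmd10 by 0.52 ± 0.06 (adjusted p = 2.27e-05), each 1.43-fold in base 2 or 1.68-fold in natural logs. Of the challenges, that to 600 mosmol/kg against the 300 culture gave a call for both: Psmd10 rose by 0.40 ± 0.06 (adjusted p = 0.000423) and Psmd5 by 0.35 ± 0.05 (adjusted p = 0.000474). In the 900 challenge against the 600 culture, Psmd5 rose by 0.34 ± 0.05 (adjusted p = 0.000491) and Psmd10 by 0.29 ± 0.06 (adjusted p = 0.0039).

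Psmd5 had 6.80, 6.67 and 6.77 in the 900 challenge with CsA, 6.67, 6.57 and 6.55 in the 900 challenge, 6.16, 6.20 and 6.20 in the 600 challenge with CsA, 6.11, 6.11 and 6.06 in the 600 challenge, 6.27, 6.34 and 6.17 in the 600 culture, and 5.79, 5.70 and 5.74 in the 300 culture. Psmd10 had 5.65, 5.55 and 5.68 in the 900 challenge with CsA, 5.66, 5.54 and 5.65 in the 900 challenge, 5.25, 5.16 and 5.25 in the 600 challenge with CsA, 5.20, 5.24 and 5.18 in the 600 challenge, 5.26, 5.44 and 5.27 in the 600 culture, and 4.72, 4.81 and 4.88 in the 300 culture. For both genes the 300 culture was lowest, the 2 groups at 900 mosmol/kg were highest and the 3 groups at 600 mosmol/kg lay between, with no overlap between these 3 levels. Set against cells grown at 600 mosmol/kg, the 24 h challenge at 600 mosmol/kg differed by -0.17 ± 0.05 for Psmd5 (adjusted p = 0.0513) and by -0.12 ± 0.06 for Psmd10 (adjusted p = 0.25), neither past the threshold. The size of the osmotic step did not differ past the threshold between the cultures for either gene, with the 900 step minus the 600 step within -0.11 to 0.08 over the 3 assembly chaperones. The third of them, Psmd9 (human p27), was called in 0 of the 10 comparisons, with group means of 5.02 to 5.20. Neither Psmd5 nor Psmd10 had a TGGAAA match in its promoter window.

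**Figure D4:**
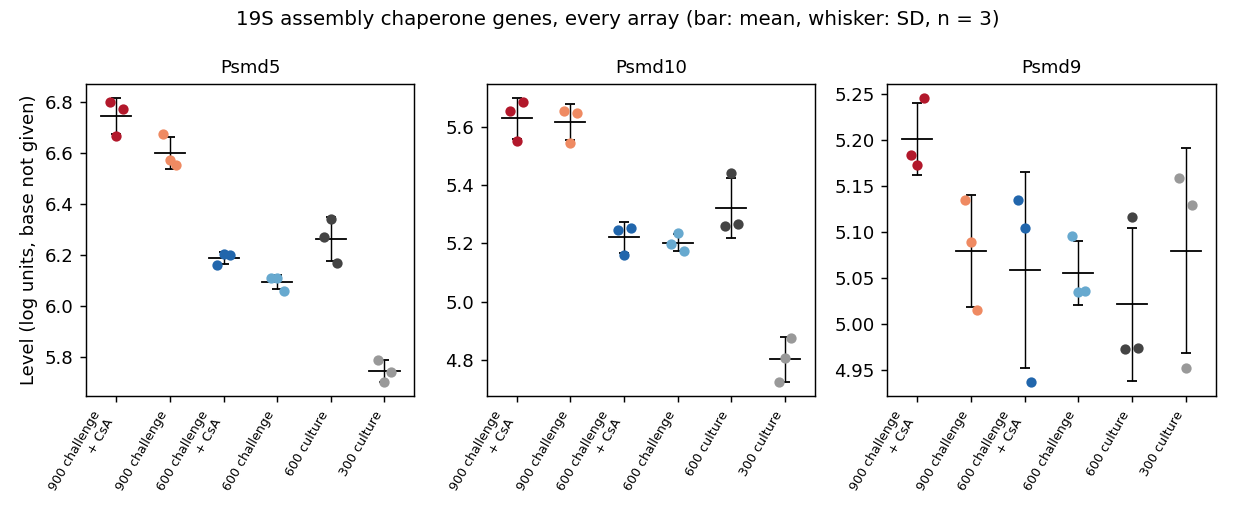
Level in log units of the 3 assembly chaperone genes of the 19S particle in every array (points), with group means and SD (n = 3). Psmd5 and Psmd10 are lowest in the 300 culture and highest in both 900 challenges, and Psmd9 stays between group means of 5.02 and 5.20.

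Most core particle genes had no call in the challenges without cyclosporin A. The 6 alpha ring genes had 0 calls in the 600 challenge against the 300 culture, and in the 900 challenge against the 600 culture 1 of the 6, Psma4, fell by 0.20 ± 0.04 (adjusted p = 0.00308). Psma4 had 7.01, 7.01 and 7.02 in the 900 challenge and 7.17, 7.24 and 7.23 in the 600 culture, without overlap. Among the structural beta genes Psmb1 to Psmb4, Psmb2 fell by 0.16 ± 0.04 in the 600 challenge against the 300 culture (adjusted p = 0.0164). That call was lost without 300 culture replicate 3 or 600 challenge replicate 2 (adjusted p up to 0.0705). Psmb2 also rose in the 900 challenge with CsA against the 600 culture, by 0.18 ± 0.04 (adjusted p = 0.00654). So did Psmb4, by 0.21 ± 0.05 (adjusted p = 0.00555) and, in the alpha ring, Psma6 by 0.17 ± 0.05 (adjusted p = 0.0209). Averaged over its features, Psma6 differed by 0.19 and was not called (adjusted p = 0.128). Psmb3 had the widest span of group means among the constitutive core and 19S subunits, at 0.56. It averaged 4.91 in the 900 challenge with CsA and 4.35 in the 300 culture, with standard deviations within groups of 0.06 to 0.24. It was called in 0 of the 10 comparisons. Of the constitutive catalytic genes, Psmb7 rose by 0.18 ± 0.05 in the 600 challenge with CsA against the 300 culture (adjusted p = 0.0172), with the call lost in 3 of 6 fits that left out 1 array (300 culture replicate 2, 600 challenge with CsA replicate 1 or 3, adjusted p up to 0.0708). Psmb5 and Psmb6 were called in 0 of the 10 comparisons.

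The regulatory particle held most of the remaining calls. Psmd2, which encodes the large scaffold subunit RPN1, rose by 0.16 ± 0.04 in the 600 challenge against the 300 culture (adjusted p = 0.0156) and by 0.16 ± 0.04 in the 900 challenge against the 600 culture (adjusted p = 0.0111). The first call was lost without 300 culture replicate 2 or 600 challenge replicate 2 (adjusted p up to 0.058), and the second without 600 culture replicate 1 (adjusted p = 0.0536). Psmd2 had 7.65, 7.61 and 7.57 in the 900 challenge with CsA, 7.55, 7.53 and 7.52 in the 900 challenge, 7.51, 7.50 and 7.50 in the 600 challenge with CsA, 7.48, 7.50 and 7.48 in the 600 challenge, 7.31, 7.38 and 7.42 in the 600 culture, and 7.34, 7.31 and 7.33 in the 300 culture. All 12 challenged arrays were above all 6 unchallenged ones. Psmd11, the RPN6 subunit that ties the regulatory particle to the core, rose by 0.20 ± 0.04 in the 900 challenge against the 600 culture (adjusted p = 0.00485). Psmd8, the RPN12 subunit, fell by 0.29 ± 0.07 (adjusted p = 0.0128). The Psmd8 call was lost without 600 culture replicate 2 or 900 challenge replicate 1 (adjusted p up to 0.0657). Of the 6 ATPase genes Psmc1 to Psmc6, 0 were called in the 600 challenge against the 300 culture or in the 900 challenge against the 600 culture.

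Psme4, which encodes the activator PA200, was the 1 constitutive gene that fell between the cultures, by 0.18 ± 0.04 in the 600 culture against the 300 culture (adjusted p = 0.00499), and it fell by the same 0.18 ± 0.04 in the 900 challenge against the 600 culture (adjusted p = 0.00538). Its arrays had 6.73, 6.74 and 6.74 in the 900 challenge with CsA, 6.70, 6.68 and 6.63 in the 900 challenge, 6.84, 6.87 and 6.84 in the 600 culture, and 7.02, 7.04 and 7.04 in the 300 culture. The 300 culture was highest and both 900 challenges were lowest, without overlap. The other activator gene, Psme3 (PA28 gamma), was called in 0 of the 10 comparisons.

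Counted over the sets, 3 constitutive genes rose and 1 fell in the 600 challenge against the 300 culture, with a median of 0.03 over the 35 against 0.02 over all features. With CsA, the 600 challenge against the 300 culture had 4 rises and 0 falls, with a median of 0.07. For the 900 challenge against the 600 culture 4 rose and 3 fell, with a median of -0.02 and differences from -0.29 to 0.34. In the 600 culture against the 300 culture 2 rose and 1 fell, with a median of -0.04. The shares called higher were 8.57%, 11.4%, 11.4% and 5.71% of the 35 in these 4 comparisons, and the shares called lower 2.86%, 0%, 8.57% and 2.86%, beside the background shares given above for each comparison. Over the 5813 genes with 1 symbol at least as bright as the dimmest constitutive gene the shares were 14%, 13.9%, 13.6% and 18.2% higher and 13.6%, 14.5%, 22.2% and 16.8% lower, each above that of the constitutive genes. Against the 600 culture, the 600 challenge had 3 rises and 0 falls, namely Psmc5 (0.22 ± 0.06, adjusted p = 0.0214), Psmc4 (0.19 ± 0.06, adjusted p = 0.04) and Psmb7 (0.16 ± 0.05, adjusted p = 0.032). The Psmc4 call was lost in all 6 fits that left out 1 array (adjusted p = 0.0511 to 0.141) and the Psmb7 call in all but the one without 600 challenge replicate 3 (adjusted p up to 0.124). Psmc4 also lost its call with the mean of its features (adjusted p = 0.06) and under quantile normalization (adjusted p = 0.0561). The Psmc5 call was lost without 600 culture replicate 3 or 600 challenge replicate 1 or 3 (adjusted p up to 0.107). Over all 44 genes, 3 rose and 3 fell in the 600 challenge against the 300 culture, 4 rose and 6 fell in the 900 challenge against the 600 culture, and 6 rose and 1 fell in the 600 culture against the 300 culture. The 4 genes matched by symbol alone had 0 calls in the 10 comparisons.

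The 900 challenge with CsA had 12 of 35 constitutive genes (34.3%) higher than in the 600 culture and 0 lower, where 7.27% of all features were called and higher. Among the same 5813 bright genes, 17.2% were called higher and 19.7% lower. The median over the 35 was 0.14 against -0.02 over all features. Most of the members' calls in this comparison were lost when only its own groups were fitted. Among the called genes, the 8 largest rises were those of Psmd5 (0.48 ± 0.05, adjusted p = 1.91e-05), Psmd11 (0.37 ± 0.04, adjusted p = 2.94e-05), Psmd7 (0.36 ± 0.10, adjusted p = 0.019), Psmd10 (0.31 ± 0.06, adjusted p = 0.00278), Psmc4 (0.27 ± 0.06, adjusted p = 0.00432), Psmd2 (0.24 ± 0.04, adjusted p = 0.000584), Psmb4 (0.21 ± 0.05, adjusted p = 0.00555) and Psmc5 (0.21 ± 0.06, adjusted p = 0.0226). Psmb2, Psma6, Psmd1 and Psmc1 followed with 0.14 to 0.18. The second feature of Psmc4 differed by 0.18 in this comparison and was not called (adjusted p = 0.141). Leaving out 1 array ended the call of Psmc5 without 600 culture replicate 3 or 900 challenge with CsA replicate 1 or 3 (adjusted p up to 0.112), and that of Psmd7 without replicate 2 or 3 of either group (adjusted p up to 0.0862). It ended the call of Psma6 without replicate 1 or 3 of either group (adjusted p up to 0.0837), and that of Psmc1 without any of the 600 culture arrays or 900 challenge with CsA replicate 1 or 3 (adjusted p up to 0.155).

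The drug's own effect was tested against the same challenge without it. In the 900 challenge with CsA against the 900 challenge, limma called 0 of the 44 genes, where 0.505% of all features were called. At an unadjusted p under 0.05 the count was 25 of 44, against 10.6% of all features and 16.2% of the bright genes. A fit whose variance prior follows intensity called 11 of 44, all higher, against 1.35% of all features and 4.58% of the bright genes. Of the 35 constitutive genes 32 had a positive difference and 3 a negative one, with a median of 0.14 and a range of -0.23 to 0.25. Of the 5813 bright genes, 3553 had a positive difference and 2253 a negative one, with a median of 0.02. Psmc4, an ATPase of the 19S base, had the lowest adjusted p, at 0.0818, with a difference of 0.25 and a 95% interval of 0.13 to 0.38. The second feature of Psmc4 differed by 0.18 (adjusted p = 0.413). Psmd1, the RPN2 scaffold, had 7.09, 7.09 and 7.07 in the 900 challenge with CsA and 6.93, 6.92 and 6.93 in the 900 challenge, a difference of 0.16 with an interval of 0.08 to 0.24 (adjusted p = 0.0981). Psmd11 had 6.88, 6.82 and 6.90 in the 900 challenge with CsA and 6.70, 6.72 and 6.67 in the 900 challenge, a difference of 0.17 with an interval of 0.08 to 0.27 (adjusted p = 0.128). Neither gene's groups overlapped, and no member passed the threshold of the test as planned.

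By role, all 6 alpha ring genes had positive differences in that comparison, with a median of 0.15, as did all 11 non-ATPase genes of the 19S particle, with a median of 0.19, and all 6 ATPase genes, with a median of 0.14. The 3 assembly chaperones were positive as well (median 0.12), while 3 of 4 structural beta genes (median 0.09), 2 of 3 catalytic beta genes (median 0.08) and 1 of 2 other activators (median 0.01) were. All these genes were read on the same arrays, so their signs are not independent of each other. Of the immunoproteasome genes, Psmb8 differed by 0.01 with an interval of -0.14 to 0.16, Psmb9 by 0.06 with -0.08 to 0.21, Psme1 by -0.02 with -0.11 to 0.07, Psme2 by 0.14 with 0.06 to 0.22 and Psmb10 by 0.28 with 0.04 to 0.53. Psmb5 had the widest interval of the catalytic genes, -0.61 to 0.15 around -0.23.

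At 600 mosmol/kg, with CsA against without it, limma again called 0 of 44 genes, where 0.409% of features were called. The count was 2 of 44 at an unadjusted p under 0.05, against 8.49% of all features and 12.8% of the bright genes, and 1 of 44 with the intensity-following prior, against 0.96% and 3.01%. The median over the 35 constitutive genes was 0.04, with 30 positive and 5 negative. Of the 5813 bright genes, 2814 were positive and 2996 negative, with a median of 0. The immunoproteasome genes differed by -0.11 to 0.02, with intervals that together ran from -0.32 to 0.17. The drug effect at 900 minus that at 600 was called for 0 of 44 genes by limma, where 0.0459% of features were called, with 7 of 44 at an unadjusted p under 0.05 (7.59% of all features) and 0 with the intensity-following prior (0.131%). A difference of the drug effect between the challenges was not shown.

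**Figure D5:**
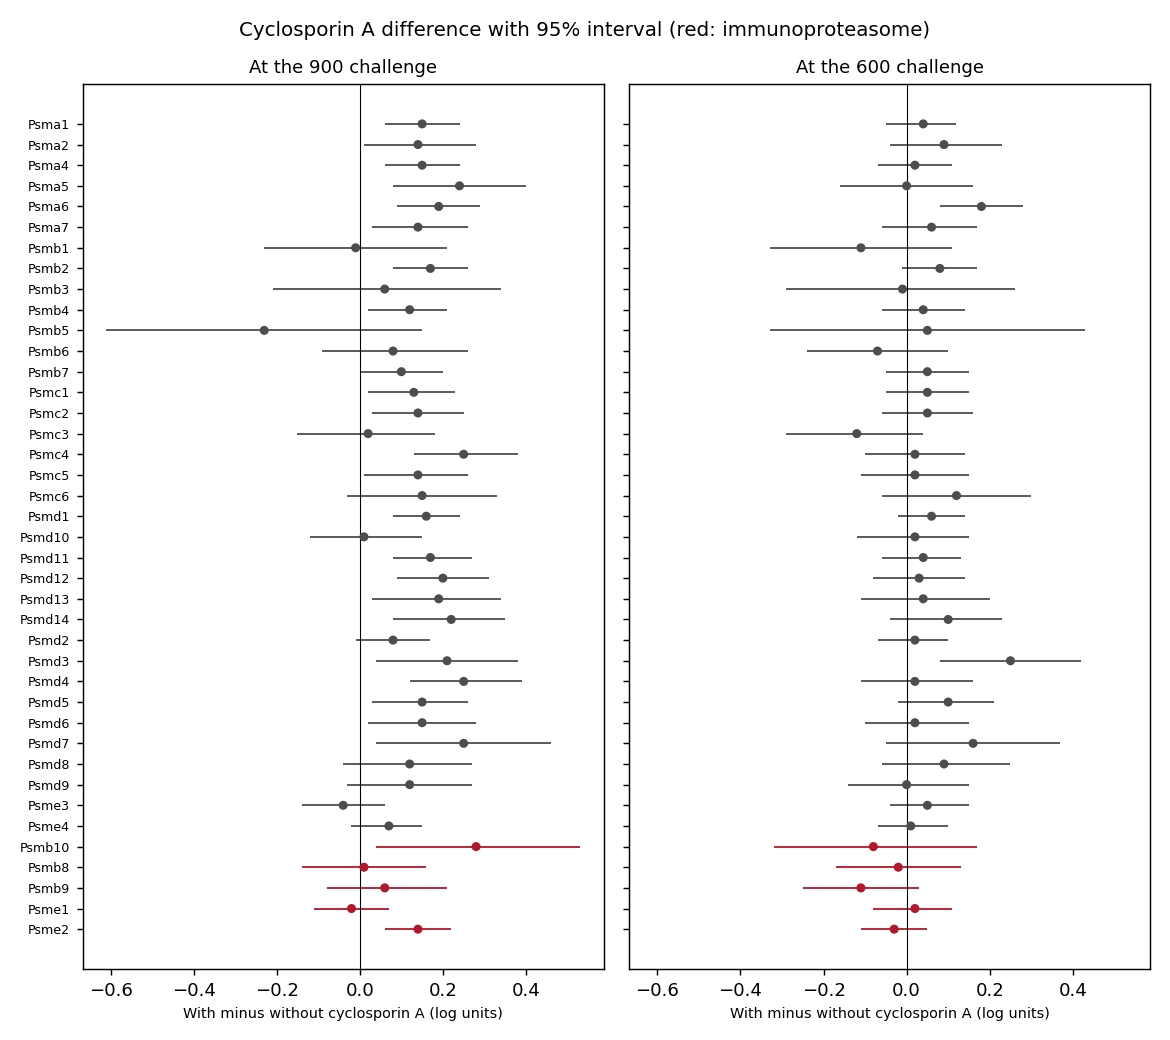
Difference between the challenge with and without cyclosporin A, in log units, for the proteasome members (points) with 95% intervals (bars), at 900 and at 600 mosmol/kg. At 900 mosmol/kg 32 of 35 constitutive members lie above 0 with a median of 0.14, at 600 mosmol/kg 30 of 35 with a median of 0.04, and no member is called in either. Of the 5813 bright genes, 3553 were above 0 at 900 mosmol/kg and 2814 at 600 mosmol/kg.

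Of the genes that assemble or assist the proteasome, 8 of 12 listed were measured. Pomp, the maturation protein of the 20S core, fell by 0.51 ± 0.07 in the 900 challenge against the 600 culture (adjusted p = 0.000165) and rose by 0.40 ± 0.07 in the 900 challenge with CsA against the 900 challenge (adjusted p = 0.0263), the 1 gene of this list called for the drug. Its group means were 5.61 in the 900 challenge with CsA, 5.21 in the 900 challenge and 5.72 in the 600 culture. Pomp also fell by 0.24 ± 0.07 in the 600 culture against the 300 culture (adjusted p = 0.0352), and 0 of the 8 were called in the 600 challenge against the 300 culture.

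Among the 8 measured genes of the NRF1 pathway, which raises proteasome gene transcription when proteasome activity falls short, Nfe2l1, which encodes NRF1, fell by 0.48 ± 0.04 in the 600 culture against the 300 culture (adjusted p = 2.88e-07) and by 0.25 ± 0.04 in the 600 challenge against the 300 culture (adjusted p = 0.000327). It rose by 0.22 ± 0.04 in the 900 challenge with CsA against the 600 culture (adjusted p = 0.000764). Ddi2, the protease that activates NRF1, fell by 0.25 ± 0.05 in the 900 challenge against the 600 culture (adjusted p = 0.00453). Nfe2l2, which encodes NRF2, rose by 0.38 ± 0.05 in the 600 culture against the 300 culture (adjusted p = 2.32e-05) and fell by 0.16 ± 0.05 in the 900 challenge against the 600 culture (adjusted p = 0.0232). Between the cultures, 3 of the 8 were called higher and 2 lower. The shares were 37.5% and 25%, beside 8.33% and 8.84% of all features. The largest rise there was that of Mafk, which averaged 5.52 in the 600 culture and 5.03 in the 300 culture. The 600 challenge against the 300 culture had 0 rises and 1 fall. Against the 600 culture, the 900 challenge had 0 rises and 2 falls, and with CsA 1 rise and 1 fall.

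Of 11 measured ubiquitin supply and shuttle genes of 16 listed, 2 rose and 0 fell in the 600 challenge against the 300 culture, and 0 rose and 3 fell in the 900 challenge against the 600 culture. The 2 rises were 18.2% of the list, beside 6.36% of all features and 14% of the bright genes called higher. The 3 falls were 27.3%, beside 11% of all features and 22.2% of the bright genes called lower. Ubqln2, a shuttle that brings ubiquitinated proteins to the proteasome, fell by 0.53 ± 0.09 in the 900 challenge against the 600 culture (adjusted p = 0.000504) and rose by 0.54 ± 0.09 in the 600 culture against the 300 culture (adjusted p = 0.000361). The AAA ATPase Vcp, which extracts ubiquitinated proteins, rose by 0.12 ± 0.04 in the 600 challenge against the 300 culture (adjusted p = 0.0456).

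The 10 autophagy receptor and aggregate handling genes, which serve the other main route of protein degradation, had 4 rises and 0 falls in the 900 challenge against the 600 culture and 0 calls in the 600 challenge against the 300 culture. The 4 rises were 40% of the list, beside 6.43% of all features and 13.6% of the bright genes called higher. In the 900 challenge against the 600 culture, Optn rose by 0.43 ± 0.07 (adjusted p = 0.000294) and Sqstm1, which encodes the receptor p62, by 0.30 ± 0.04 (adjusted p = 0.000165). Sqstm1 also rose by 0.29 ± 0.04 in the 900 challenge with CsA against the 900 challenge (adjusted p = 0.00869).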

How the data were processed

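Total RNA (Qiagen RNeasy) for the 18 arrays was amplified, converted to cDNA and end-labelled with Affymetrix whole-transcript kits, per the labels' protocols. The deposited file gives 1 value per feature and array on a log scale. Its base, and how the authors summarised and normalized the probes, are not given in the sources used here. Testing was planned for log2 and carried out on the log values as deposited, because a change of base multiplies all differences by 1 factor and alters no p-value. Features were neither filtered nor rescaled. With 3 arrays a group, the number of arrays limits the precision.

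Symbols came from the platform's annotation table, and 43 of 44 members were found in the RefSeq gene table (GRCr8) with 0 changed symbols. Promoter windows were RefSeq's. limma 3.58.1 in R 4.3.3 fitted 6 group means to all 18 arrays and all 28328 features (12 residual and 2.03 prior degrees of freedom), with Benjamini-Hochberg adjustment in each contrast and a threshold of 0.05. The procedure was also run on simulated data with independent features, which cannot show how it treats genes that vary together. The limit set for the recovery of shifted features was loosened after a first run had missed it. The contrasts were the 4 that the series text names, the cyclosporin A groups against their challenges, the 600 culture against the 300 culture, the 600 challenge against the 600 culture, and the differences of steps and of drug effects.

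The named constitutive genes were up to 8 with the largest rise and up to 8 with the largest fall among the called, and those that close a role group. Up to 4 genes per pathway list were named, with Tap1, Aqp2 and other genes a result turns on. The members, the lists and the motifs were chosen with earlier results of these data known. Alternatives were median-centred arrays, quantile normalization, an intensity-trended prior, removal of dim features, the groups of a contrast alone, the mean of a gene's features, the replicate block and leaving out each array.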

Additional observations from a re-analysis of the deposited data

Results flagged for a closer look

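The change on the osmotic step differed between the cultures for 3 of 44 genes (6.82%, against 7.58% of all features) by the test of the difference itself, the step to 900 mosmol/kg minus the step to 600 mosmol/kg. The share is no larger than that over all features. Psmb10 had a difference of -0.74 log units (limma adjusted p = 0.0118), made up of -0.76 in the 900 challenge against the 600 culture and -0.02 in the 600 challenge against the 300 culture. For Psma4 the difference was -0.24 (limma adjusted p = 0.0224), made up of -0.20 and 0.04. For Psme2 it was -0.21 (limma adjusted p = 0.0312), made up of -0.34 and -0.13.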

How the results depend on the processing

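Of 84 member differences examined under the alternatives, 55 were called, and none of the 55 changed sign. Fitting only the groups of a contrast, with fewer arrays behind the spread, gave 3 members called in the 600 challenge (6 with all arrays), 3 with CsA (6), 3 in the 900 challenge (10), 3 with CsA (15), each against its unchallenged culture, and 4 in the 600 challenge against the 600 culture (8). Of the 55 called differences, 31 lost their call in that fit. The intensity-trended prior gave 11 in the 600 challenge with CsA against the 300 culture, 1 and 11 for the drug at 600 and 900 mosmol/kg (0 and 0), and 15 in the 600 challenge against the 600 culture. In the same order, that prior called 16.6%, 0.96%, 1.35% and 18.6% of all features and 36.2%, 3.01%, 4.58% and 41.2% of the bright genes. Without dim features, which tests fewer features, 3 members were called for the drug at 900 mosmol/kg. For this and the other alternatives here, the share of all features called is not given. Their member counts can therefore not be set against a background. Median centring left 1 of 3 for the difference of steps, and the cause was not tested. Leaving out single arrays gave 4 to 6 members in the 600 challenge, 5 to 7 with CsA, 9 to 11 in the 900 challenge, 11 to 16 with CsA, 7 to 8 between the cultures, 5 to 7 in the 600 challenge against the 600 culture (5 without 600 challenge replicate 1), 1 to 3 for the difference of steps (1 without 300 culture replicate 1 or 2, 600 culture replicate 2 or 3, or 600 challenge replicate 1), and 0 for the drug at either osmolality and for the difference of its effects. Of the 55 called differences, 39 kept their call in each of these fits. Same-numbered arrays did not deviate together (45 pairs, r from -0.129 to 0.108, median 0.00851), so a pairing by number was not seen. These correlations cannot exclude a pairing, because a shared origin that acts on few genes could be missed. With the replicate block the counts were 6, 6, 10, 14, 0 and 0 for the 4 challenges and the drug at both osmolalities, 7 between the cultures, 8 in the 600 challenge against the 600 culture, 3 for the difference of steps and 0 for that of the drug effects. It ended the call of Psmc1 in the 900 challenge with CsA against the 600 culture (adjusted p = 0.0626) and of no other member. Quantile normalization ended 4 calls, median centring 4 and the mean of a gene's features 5, with adjusted p from 0.0501 (Psmb7, 600 challenge against 600 culture, quantile) to 0.933 (Psme1, 900 challenge with CsA against 600 culture, mean of features). Psme2 in the 600 challenge against the 300 culture lost its call under all 3 (adjusted p = 0.0647 to 0.0952).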
